A study of Mus musculus with 144 samples.

Results

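The 23 wells described here were microglia with messenger RNA of Gpr84, a membrane receptor that senses fatty acids of medium chain length, and they were compared by whether Tnf, the gene of the cytokine tumour necrosis factor, was present as well. Wells were kept where at least 50000 reads had been assigned to genes and Gpr84 reached 50 RPM, meaning reads per 1000000 reads assigned to genes. That left 23 of 144 wells in the series, or 23 of the 88 wells deep enough. Tnf reached 50 RPM in 14 of the 23 wells and not in the other 9. Both thresholds are on measured values, so the levels of Gpr84 and Tnf below describe the choice of wells and are no finding.

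Each sample of the series was a well into which flow cytometry had sorted 1 green fluorescent cell from the retina of C57BL/6 mice of 20 to 22 months carrying an Iba1-EGFP transgene. Full-length complementary DNA was amplified and sequenced from each well. The animals either had no treatment (54 wells, called uncrushed here) or were sampled at day 2 (36 wells) or day 4 (54 wells) after optic nerve crush, an injury that damages the axons of retinal ganglion cells. No label names an animal, so the wells of a day count as 1 sample, and differences between wells are given without any test or p-value. The Iba1 promoter drives the EGFP of this transgene in microglia and also in other macrophages, so the sort alone does not separate them. The 18 day 4 wells of plate 1 carry a treatment tag of day 2, against their titles. Of the 23 Gpr84 wells 5 are among them, and they were grouped by title.

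Tumour necrosis factor is made by microglia and other myeloid cells after sensing of microbial or damage signals, largely through Toll-like receptors and the transcription factor NF-kB. It is released from the membrane by the protease Adam17, binds the receptors Tnfrsf1a and Tnfrsf1b, and its messenger RNA is short-lived because Zfp36 (tristetraprolin) binds it and directs its decay. Gpr84 is low in resting microglia and is known to be induced by inflammatory stimuli.

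In the files' annotation (GRCm38.p6), Gpr84 is a gene of 2 exons on the minus strand at chr15:103308235-103310612. Tnf has 4 exons on the minus strand at chr17:35199381-35202007. Il1a, the gene of the alarm cytokine interleukin 1 alpha and the third gene followed here, has 7 exons on the minus strand at chr2:129299610-129309972. Bases upstream of these genes, and of Tlr2 and Cxcl10 described below, are shown as the start regions of genes the results turn on. Sequences run 5′ to 3′ on the gene's strand and are RefSeq promoters of GRCm38.p6 without the bases after the start. For Gpr84 and Tlr2 the deposited annotation starts further upstream than RefSeq, so only the 76 and 91 bases before the deposited start are shown, against 250 for the others. Capitals mark matches to the NF-kB consensus, to the AP-1 motif TGANTCA, to the core of the interferon-stimulated response element (GAAA, any 2 bases, GAAA; all on both strands) and to TATAAA on the gene's strand.
Tnf, chr17:35202008-35202257: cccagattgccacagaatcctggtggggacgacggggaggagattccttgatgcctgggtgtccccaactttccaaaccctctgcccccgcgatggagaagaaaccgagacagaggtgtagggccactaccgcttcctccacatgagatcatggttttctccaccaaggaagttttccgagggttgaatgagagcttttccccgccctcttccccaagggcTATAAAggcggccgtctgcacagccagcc
Gpr84, chr15:103310613-103310688: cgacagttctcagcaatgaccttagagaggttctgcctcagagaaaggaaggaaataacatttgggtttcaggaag
Il1a, chr2:129309973-129310222: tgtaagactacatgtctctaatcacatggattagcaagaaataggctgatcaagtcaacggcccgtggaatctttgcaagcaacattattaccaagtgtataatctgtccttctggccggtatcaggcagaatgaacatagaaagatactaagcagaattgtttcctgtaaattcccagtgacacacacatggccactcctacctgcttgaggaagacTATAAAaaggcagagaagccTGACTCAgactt
Tlr2, chr3:83841768-83841858: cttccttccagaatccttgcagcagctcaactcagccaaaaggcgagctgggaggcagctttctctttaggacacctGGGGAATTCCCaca
Cxcl10, chr5:92348890-92349139: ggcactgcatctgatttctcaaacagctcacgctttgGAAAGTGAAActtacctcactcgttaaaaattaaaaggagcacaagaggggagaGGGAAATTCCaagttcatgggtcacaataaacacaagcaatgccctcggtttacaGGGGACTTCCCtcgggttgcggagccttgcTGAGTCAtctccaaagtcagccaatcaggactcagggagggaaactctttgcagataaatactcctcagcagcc
The window of Cxcl10 held 1 interferon core, 1 AP-1 match and 3 NF-kB matches, of which those at 104 and 103 bases before the start overlap. Tlr2 had 2 overlapping NF-kB matches. Il1a had a TATA match and an AP-1 match, Tnf a TATA match, and Gpr84 none of the 4 motifs in its 76 bases. A match describes the letters only, and no match says only that these letters are absent from the window. Of all 32851 RefSeq promoters, taken over 250 bases before the start, 7.25% held the NF-kB consensus, 6.75% the AP-1 motif, 2.98% the interferon core and 7.59% TATAAA. These shares do not apply to the shorter windows. Of 25 genes looked up (the 3 above, the 15 highest genes and the chemokines below), 20 had a sequence. In the 250 bases before the RefSeq start, 3 of these genes held an NF-kB match, 5 an AP-1 match, 2 an interferon core and 6 a TATA match.

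By day, Tnf was present in 2 of 5 uncrushed Gpr84 wells, 3 of 6 at day 2 and 9 of 12 at day 4. These shares, 40%, 50% and 75%, had exact Clopper-Pearson 95% intervals of 5.27 to 85.3%, 11.8 to 88.2% and 42.8 to 94.5%, which overlap and cover counting error only. By plate, 4 of 10 Gpr84 wells of plate 1 had Tnf, 7 of 9 of plate 2 and 3 of 4 of plate 3. Day and plate are uneven between the sides: 6 of the 14 wells with Tnf were day 4 wells of plate 2, against 1 of the 9 without, and the 9 without included 2 uncrushed, 2 day 2 and 2 day 4 wells of plate 1. The effect of the plate was not tested.

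Outside the Gpr84 wells, Tnf reached 50 RPM in 0 of 65 deep wells, which allows a share of up to 5.52%. Its highest level there was 16.6 RPM, equal to 1 read, in the uncrushed well B4 of plate 2, and 52 of the 65 wells had no read of it. The same well had the highest Gpr84 level among the 65, 8.32 RPM from 0.5 of a read, and the Gpr84 well nearest above the threshold of 50 RPM held 73.4 RPM. For Tnf the values nearest the threshold were 3.87 RPM in well G1 and 122 RPM in well G4, both of day 4 on plate 1. So no well of the 88 lay between 8.32 and 73.4 RPM for Gpr84, and no Gpr84 well between 3.87 and 122 RPM for Tnf. Of the 9 wells without Tnf, 8 had no read of it, and 3 reads would have been 0.372 to 23.6 RPM in them. Their depth would thus have shown levels like those of the other side in the sequenced material. Loss of a message before sequencing was not tested, so a well without Tnf is one in which it was not found. In the 56 shallow wells, no more than 2 reads of Tnf and 2.5 of Gpr84 were found in any well.

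**Figure D1:**
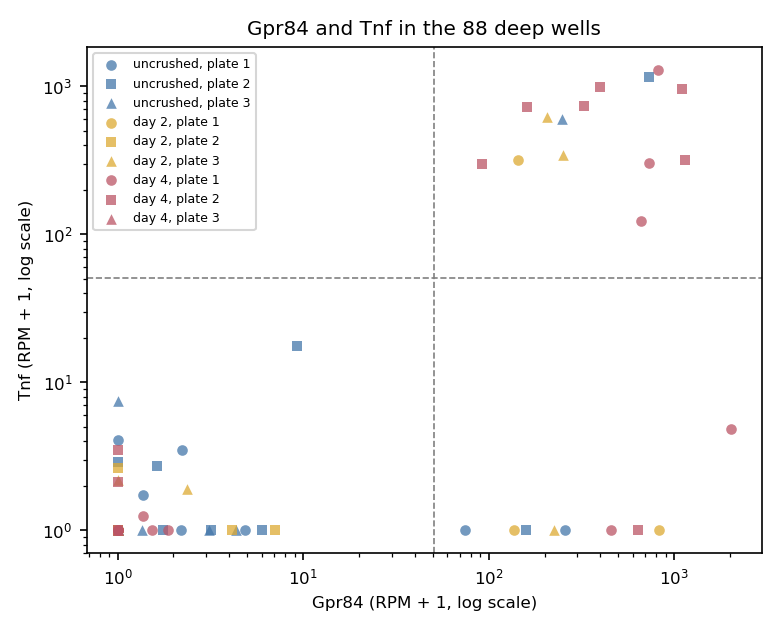
Tnf against Gpr84 in the 88 deep wells, each as RPM + 1 on a log scale, 1 point a well, coloured by day with a symbol for each plate. Dashed lines stand at 50 RPM. The 14 wells at the top right held both, the 9 at the bottom right Gpr84 with Tnf at 0 or 3.87 RPM, and no well lies at the top left.

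Among the uncrushed Gpr84 wells, Gpr84 stood at 732 and 249 RPM with Tnf and at 257, 73.4 and 157 RPM without. At day 2 it was 142, 250 and 204 RPM with Tnf and 136, 823 and 224 RPM without. At day 4 the 9 wells with Tnf ran from 91.5 to 1147 RPM, and the 3 without held 2030, 457 and 639 RPM. The sides overlapped over the whole set, with medians of 362 and 257 RPM, and the highest Gpr84 level of all belonged to a well without Tnf (day 4, plate 1, G1). Tnf in its 14 wells was 1150 and 597 RPM in uncrushed retina, 316, 344 and 618 RPM at day 2, and 122 to 1284 RPM with a median of 717 RPM at day 4. Within those 14 wells the amount of Gpr84 and of Tnf had a Pearson r of 0.16 and a Spearman rho of 0.31 over wells of 3 days, given as a description.

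Il1a was also found on both sides. It reached 50 RPM in 12 of 14 wells with Tnf (85.7%, exact interval 57.2 to 98.2%), in 6 of 9 without (66.7%, 29.9 to 92.5%) and in 7 of the 65 deep wells without Gpr84 (10.8%, 4.44 to 20.9%). Its lowest, median and highest levels were 0, 1083 and 2501 RPM with Tnf and 0, 687 and 1809 RPM without. The 2 wells with Tnf and almost no Il1a were the uncrushed well B2 of plate 2 (Tnf 1150 RPM, Il1a 0) and the day 4 well F6 of plate 2 (Tnf 951 RPM, Il1a 1.82 RPM). The 3 wells with Gpr84 and neither cytokine at 50 RPM were the uncrushed well A3 of plate 2, the day 2 well E5 of plate 1 and the day 4 well H2 of plate 1. The 23 wells therefore held 12 with all 3 messages, 2 with Tnf alone, 6 with Il1a alone and 3 with neither.

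The wells of both sides carried microglia markers. With Tnf, 10 or 11 of the 11 markers (among them Cx3cr1, P2ry12, Tmem119, Csf1r, C1qa, C1qb, C1qc, Ctss, Aif1 and Trem2) reached 50 RPM in each well, and their summed level was 41301 to 72909 RPM. Without Tnf it was 8 to 11 markers and 32980 to 65403 RPM, and the wells with 8 and 9 were G1 and H2 of day 4 on plate 1. No Gpr84 well had more than 2 of 12 neutrophil, 2 of 8 monocyte, 1 of 7 perivascular macrophage, 2 of 13 rod or 3 of 8 Müller glia and astrocyte markers at 50 RPM. Summed neutrophil markers were 0 to 771 RPM with Tnf and 0 to 1638 RPM without, monocyte markers 0 to 195 and 0 to 225 RPM, and rod markers 0 to 397 and 0 to 33.7 RPM. Of 5 B cell markers at most 2 reached 50 RPM, with sums of 0 to 1566 RPM with Tnf and 0 to 2309 RPM without, and of 7 cone markers at most 1, with sums of 0 to 268 and 0 to 383 RPM. Markers of T and NK cells, endothelial cells and red blood cells were at 0 in every Gpr84 well. Doublets were not called.

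The 65 deep wells without Gpr84, which serve as a reference below, were more mixed. Of them 7 had fewer than 3 microglia markers at 50 RPM, 10 had 3 or more neutrophil markers (up to 8), 5 had 3 or more rod markers (up to 12), and 1 had summed monocyte markers of 60966 RPM. In a set of 33, 8 or more microglia markers reached 50 RPM while no other cell type had 3, a restriction chosen after seeing the data. Among these 33, Tnf and Cxcl10 reached 50 RPM in 0, Il1a in 6, Lcp2 in 2, Ccl4 in 1, Myd88 in 5 and Isg15 in 6 wells. Their median was 3311 genes, or 1401 after thinning.

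Beyond the 3 genes, the sides differed in how many genes a well showed. Wells with Tnf had 3738 to 10849 genes with any read (median 8020), and wells without had 3247 to 9207 (median 4853). The 65 deep wells without Gpr84 had a median of 3139. Depth was similar, with medians of 828324 reads with Tnf and 856781 without. After each well was thinned to 50000 reads the medians were 4304, 2160 and 1240 genes, and the ranges of the Gpr84 sides still overlapped. By day, the thinned medians with and without Tnf were 3470 and 2126 (uncrushed), 3470 and 4128 (day 2), and 4858 and 2160 (day 4), so the order was the opposite at day 2. Ribosomal protein genes took 0.833 to 2.48% of the reads with Tnf and 0.956 to 3.66% without. The number of genes thus moves with the sides over all wells, in uncrushed retina and at day 4, and its part in the comparisons below was not tested.

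**Figure D2:**
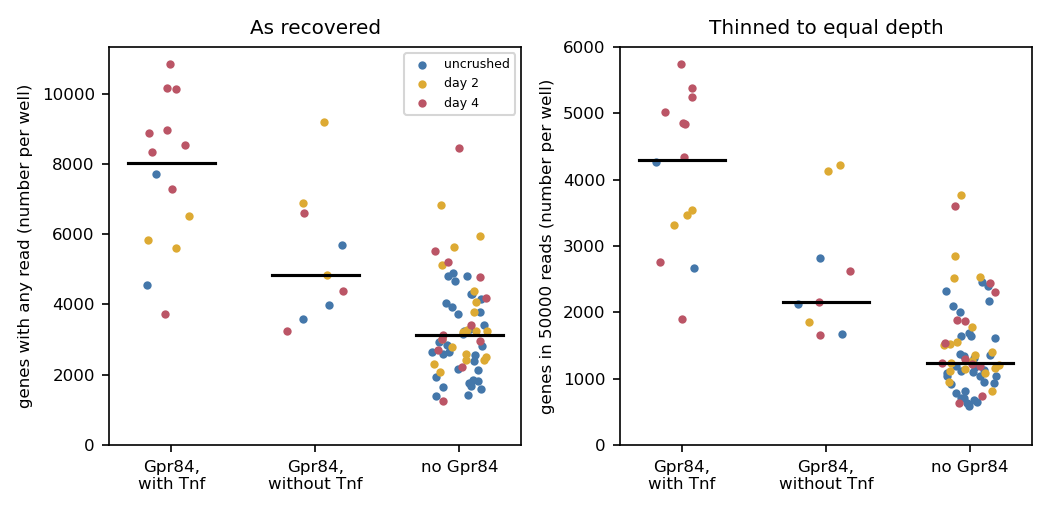
Genes with any read per well (left) and the same after thinning each well to 50000 reads (right), for Gpr84 wells with Tnf, Gpr84 wells without Tnf and deep wells without Gpr84. Points are wells coloured by day and bars are medians: 8020, 4853 and 3139 genes at left, 4304, 2160 and 1240 at right.

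Genes were compared by the difference of their mean log2(RPM + 10) between the 14 wells with Tnf and the 9 without, for the 4199 genes besides Gpr84 and Tnf that reached 50 RPM in at least 5 of the 23 wells. The pseudocount of 10 makes this scale understate differences of low genes, and RPM are not divided by length, so levels are compared only within a gene. A gene can enter through the side where it is high. Every compared gene named below with 0 of 9 wells without Tnf at 50 RPM entered in that way. Such a 0 is partly set by the filter, and the share of all genes with it is not given. The median over all 4199 genes was 0.69, and 3187 genes (75.9%) were above 0, so the zero of this comparison is not a neutral point and list medians are read beside 0.69. By day that median was 0.34 (uncrushed), 0.00 (day 2) and 1.165 (day 4). By plate it was 1.09, 0.93 and -0.16 on plates 1, 2 and 3.

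A difference of 4-fold on this scale (2 in log2) was reached by 390 genes higher with Tnf (9.29%) and by 3 genes lower (0.0714%). Of the 390, 272 also passed it in the mean of the 3 within-day differences and 333 after thinning. In the wells with at least 5000 genes, which were 12 with Tnf and 4 without, 213 of the 390 passed it and 386 were above 0. That restriction was added after the counts of genes were seen. Of the 53 genes past 4-fold higher that are named here, 18 were under it there. They were Lpl (0.48), Hsp90b1 (0.60), Olfml3 (0.62), Cxcl16 (0.74), Dnajb1 (0.84), Cd48 (0.98), Nfkbia (1.21), Tpi1 (1.27), Ccl12 (1.31), Zfp36 (1.35), Icam1 (1.40), Calr (1.42), Psmb9 (1.49), Ccl4 (1.5), Cd180 (1.69), Btg2 (1.84), Fos (1.89) and Nfkbiz (1.97). In all 3 days 1009 genes (24%) were higher with Tnf and 251 genes (5.98%) lower. The wells of both sides did not overlap for only 1 gene higher with Tnf (0.0238%) and 2 lower (0.0476%).

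The gene whose wells did not overlap in the higher direction was Lcp2, which encodes SLP-76, an adaptor of immune receptor signalling. Its lowest, median and highest levels were 8.61, 372 and 1870 RPM with Tnf and 0, 0.948 and 7.87 RPM without. It reached 50 RPM in 12 of 14 wells with Tnf, 0 of 9 without and 6 of 65 deep wells without Gpr84. Lcp2 thus passed the detection filter through wells with Tnf alone. The difference was 4.83 in log2 (means 8.33 ± 1.72 and 3.50 ± 0.26, SD over wells), and it was 5.45, 4.00 and 5.07 within uncrushed retina, day 2 and day 4. The lowest well with Tnf, D6 of day 2 on plate 1, held 8.61 RPM and so stood close to the highest without. The latter was the uncrushed well A3 of plate 2, where 7.87 RPM is 1 read. Both levels are under 50 RPM, so the lack of overlap turns on 1 read in A3. Over 40 other settings of the comparison the difference stayed past 4-fold in all 40, from 2.95 to 7.26. Lcp2 was the gene with the largest difference of the 4199.

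Next came Tlr2, the Toll-like receptor for bacterial lipoproteins, with a difference of 4.39. Its levels were 0, 824 and 3060 RPM with Tnf and 0, 1.08 and 356 RPM without, and it reached 50 RPM in 12 of 14 and 2 of 9 wells. Both wells with Tnf that lacked it were outside day 4 (uncrushed B2 of plate 2 and day 2 D6 of plate 1), all 9 day 4 wells with Tnf held at least 369 RPM, and the 3 day 4 wells without Tnf held at most 1.94 RPM. The difference was 0.80, 2.13 and 6.66 by day. Further receptors of the innate response lay close by: C3ar1, the receptor of the complement fragment C3a, with 12 of 14 against 2 of 9 wells (difference 4.18), and Hcar2, a receptor of hydroxycarboxylic acids, with 13 of 14 against 2 of 9 (4.15).

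The other genes among the 15 highest had differences of 3.58 to 4.28 and the same sign in each day, as the rule for naming them required. Irgm1, an interferon-induced GTPase, reached 50 RPM in 11 of 14 wells with Tnf and 0 of 9 without, where its highest level was 1.17 RPM. Rrp1, a nucleolar protein of ribosome assembly, did so in 11 of 14 against 0 of 9. Irgm1 and Rrp1 passed the detection filter through wells with Tnf alone. Fuca1, a lysosomal fucosidase, was found in 12 against 1 well, Atp6ap1, a subunit of the vacuolar proton pump, in 11 against 1, and Tcn2, a secreted carrier of vitamin B12, in 13 against 1. Lgals3bp, a secreted glycoprotein, was at 227 RPM or more in all 14 wells with Tnf and reached 50 RPM in 4 of 9 without. Pdia6, Fcrls, Ccnl1, Ccl12 and P2ry13 completed the set.

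**Figure D3:**
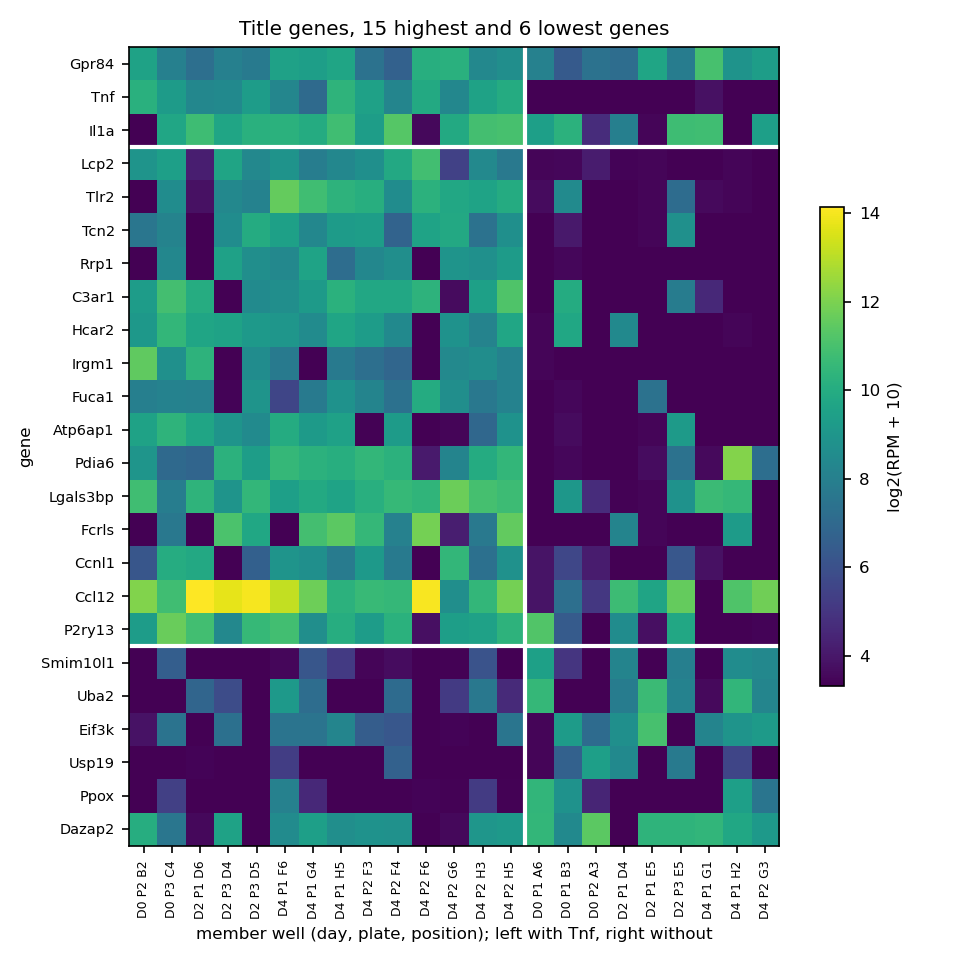
Level of Gpr84, Tnf and Il1a, of the 15 highest and of the 6 lowest genes by difference, in each of the 23 Gpr84 wells, as log2(RPM + 10) by colour. Columns are wells, 14 with Tnf left of the white line and 9 without right of it. Lcp2 is dark in all 9 wells without Tnf, and the 6 lowest genes overlap between the sides.

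In the lower direction differences were smaller. The 3 genes past 4-fold were Smim10l1, a small membrane protein (-2.26), Uba2, a subunit of the enzyme that activates SUMO (-2.10), and Eif3k, a subunit of translation initiation factor 3 (-2.06). Smim10l1 reached 50 RPM in 3 of 14 wells with Tnf and 5 of 9 without, with medians of 0.78 and 242 RPM, and the levels overlapped. Eif3k did so in 8 of 14 and 7 of 9. Others among the lowest genes, Usp19, Ppox, Dazap2, Mpc2, Tex261, Rdh14, Prr14, Inpp5k, Uba7, Rela and Tpm4, had differences of -2.0 to -1.56. The wells of both sides did not overlap for Rpl37a, a ribosomal protein (-1.09), and for the gene model Gm4613 (-0.89). Both were named after their values were seen, and ribosomal protein genes have many processed copies between which reads can be split. Of 81 ribosomal protein genes compared, 48 were below 0 and 33 above, with a median of -0.25, which was 0.39, -1.06 and -0.44 by day.

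Of the 24 gene lists, chemokines, the secreted attractants of leukocytes, had the highest median difference over all 23 wells, 3.01 against 0.69 over all genes. They were also highest within day 2, but the interferon, costimulatory and MHC class II lists were higher within uncrushed retina, and the costimulatory, early response and homeostatic lists within day 4. Of 18 listed, 8 were compared, all 8 were above 0 and 6 were past 4-fold. Such counts are read beside the shares of all 4199 genes, 75.9% above 0 and 9.29% past 4-fold higher. The chemokine median was 2.27, 2.60 and 2.43 within uncrushed retina, day 2 and day 4, beside 0.34, 0.00 and 1.165 for all genes. Within plates 1, 2 and 3 it was 2.64, 2.69 and 1.37, beside 1.09, 0.93 and -0.16 for all genes. In the wells with at least 5000 genes it was 2.10, beside 0.30 for all genes. Wells with Tnf had 3 to 8 of the 8 at 50 RPM (median 7) and wells without had 1 to 6 (median 3). Chemokines, Toll-like receptors and NF-kB inhibitors are described first because Tnf is commonly induced together with them.

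Ccl3 and Ccl4, chemokines that attract leukocytes, differed between themselves. Ccl3 reached 50 RPM in 13 of 14 wells with Tnf and 3 of 9 without, with lowest, median and highest levels of 0, 788 and 8181 RPM and 0, 2.84 and 3880 RPM (difference 3.41). Ccl4 did so in 13 of 14 and 8 of 9, with 0, 2389 and 12742 RPM and 5.69, 318 and 6731 RPM (difference 2.27), but in only 5 of 65 deep wells without Gpr84. Ccl4 was thus found in most Gpr84 wells of both sides, and Ccl3 mostly on the side with Tnf. The well with Tnf that had no read of either was D4 of day 2 on plate 3, and the highest Ccl4 without Tnf was in the uncrushed well A6 of plate 1.

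Ccl2 and Ccl12, ligands of Ccr2 that attract monocytes, were both past 4-fold over all wells, but Ccl12 not in the wells with at least 5000 genes (1.31). Ccl12 was at 393 RPM or more in all 14 wells with Tnf, with a median of 3628 and a highest level of 18065 RPM, and it reached 50 RPM in 6 of 9 without (median 792, highest 3566 RPM, difference 3.59). Ccl2 reached 50 RPM in 11 of 14 and 2 of 9, with medians of 441 and 0 RPM (difference 3.13, but 0.68 within day 4). The 2 wells without Tnf that held Ccl2 were day 4 wells with 1631 and 1293 RPM. Ccl7, a related ligand that was under the detection filter, was found in 4 of 14 and 0 of 9 wells.

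Cxcl16, the membrane-bound ligand of Cxcr6, was present in all 14 wells with Tnf (137 to 1035 RPM, median 434) and in 3 of 9 without (difference 3.24), though the highest single level, 2940 RPM, was in a well without Tnf. In the wells with at least 5000 genes its difference was 0.74. Cxcl10, an interferon-induced ligand of Cxcr3, reached 50 RPM in 7 of 14 wells with Tnf, 0 of 9 without and 0 of 65 deep wells without Gpr84. It passed the detection filter through wells with Tnf alone. Its levels in those 7 wells ran up to 2405 RPM, the other 7 had at most 1.44 RPM, and the highest without Tnf was 2.37 RPM (difference 2.90). Ccl6 and Ccl9 had differences of 1.64 and 0.62. Ccl8, Ccl22 and Cxcl1 were listed at 0 in every Gpr84 well, and Cxcl2 reached at most 13.8 RPM.

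**Figure D4:**
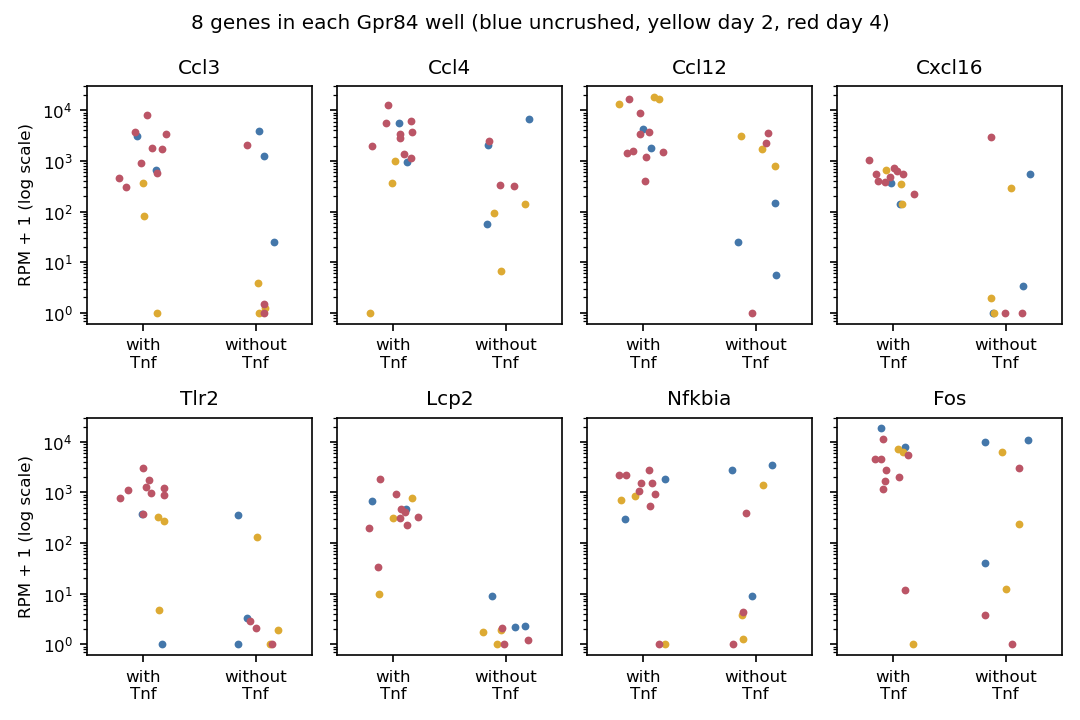
Level of Ccl3, Ccl4, Ccl12, Cxcl16, Tlr2, Lcp2, Nfkbia and Fos in each of the 23 Gpr84 wells, as RPM + 1 on a log scale, coloured by day. Lcp2 shows no overlap, while wells without Tnf reach the range of the others for Ccl4, Nfkbia and Fos.

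The Toll-like receptor list holds receptors with their adaptors and kinases, and its median was 0.91. Of its genes 13 of 14 were above 0 (all genes 75.9%) and 5 past 4-fold (all genes 9.29%). Besides Tlr2 these included Cd14, the co-receptor for lipopolysaccharide, which was at 225 RPM or more in all 14 wells with Tnf and reached 50 RPM in 4 of 9 without (difference 3.32). Myd88, the adaptor shared by most Toll-like receptors, was at 50 RPM in 9 of 14 wells with Tnf, 0 of 9 without, where its highest level was 1.94 RPM, and 11 of 65 deep wells without Gpr84 (difference 2.99, and 2.73, 3.11 and 2.96 by day). It passed the detection filter through wells with Tnf alone. Cd180, a receptor related to Tlr4, had 9 against 1 well (2.60). Tlr9 was listed at 0 in every Gpr84 well.

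The list of NF-kB subunits and inhibitors had a median of 0.91 (but a median of -1.28 on plate 3). Of its 11 genes 9 were above 0 (all genes 75.9%) and 3 past 4-fold (all genes 9.29%). None of these 3 was a subunit. Nfkbia, the inhibitor that NF-kB itself induces, reached 50 RPM in 12 of 14 wells with Tnf and 4 of 9 without (medians 1002 and 7.87 RPM, difference 2.48). Nfkbib did so in 10 of 14 and 1 of 9 (2.23) and Nfkbiz in 10 of 14 and 2 of 9 (2.12). Of the subunits, Rela was in the other direction at -1.59, with 4 of 14 and 5 of 9 wells and medians of 0.673 and 126 RPM, and Nfkb1 stood at 0.72. Tnfaip3, the enzyme A20 that damps NF-kB signalling, stood at 0.88 with 5 of 14 and 2 of 9 wells.

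The list of the receptors, release and death signalling of tumour necrosis factor had a median of 0.66 over all wells. No gene of its 6 was past 4-fold (all genes 9.29%) and 4 were above 0 (all genes 75.9%). By day the median was -0.05, 0.96 and 2.21, beside 0.34, 0.00 and 1.165 for all genes, and it was 0.40 to 0.93 with 1 well left out. Tnfrsf1a differed by 0.80 and Tnfrsf1b by -0.02, each at 50 RPM in 6 of 14 wells with Tnf, and Adam17 by -0.14. Cflar, an inhibitor of caspase 8, was at 50 RPM in 6 of 14 wells and had no read in the 9 wells without Tnf (1.93). It passed the detection filter through wells with Tnf alone. The regulators of Tnf messenger RNA had a median of 0.83. Zfp36 was the 1 gene of 6 past 4-fold (2.75), at 50 RPM in 13 of 14 and 5 of 9 wells with medians of 1876 and 608 RPM. Its difference was 2.60, 0.57 and 5.07 by day.

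For the interleukin 1 family and inflammasome the median was 0.50 and 0 of 6 genes were past 4-fold (all genes 9.29%). Il1a differed by 1.54, with -1.61, 2.82 and 1.81 in uncrushed retina, day 2 and day 4, so its direction was not the same in all days. Casp4, the caspase that senses cytosolic lipopolysaccharide, differed by 1.85 (9 of 14 and 2 of 9 wells). Il1b reached 50 RPM in 1 of 14 and 1 of 9 wells and Nlrp3 in 5 and 2. Among the other cytokines, Il6 and Il10 were listed at 0 in all 23 wells, and Osm, the gene of oncostatin M, was found in 4 of 14 and 0 of 9.

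The early response list holds transcription factors and feedback genes that are induced within minutes of a stimulus, and also by handling of cells. Its median was 1.99, with 16 of 16 genes above 0 (all genes 75.9%) and 8 past 4-fold (all genes 9.29%). The sign was the same in all days for 14 of them. Of all genes, 24% were higher in all days and 5.98% lower. By plate the list's median was 2.46, 4.68 and -1.88, the last from 3 wells with Tnf and 1 without on plate 3. Atf3 (2.86), Btg2 (2.81), Jun (2.71) and Fos (2.55) had the largest differences. The wells did not split cleanly: 12 of the 14 wells with Tnf had 11 to 15 of the 16 genes at 50 RPM, but D4 of day 2 on plate 3 had 0 and F6 of day 4 on plate 2 had 1. Conversely 3 of the 9 wells without Tnf had 13 to 15, namely A6 and B3 of uncrushed retina on plate 1 and E5 of day 2 on plate 3, and the other 6 had 0 to 7. These wells were singled out after their values were seen.

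In those 3 wells Fos stood at 10887, 9703 and 6378 RPM, Jun at 20217, 4068 and 2932 RPM and Nfkbia at 2773, 3542 and 1396 RPM, with Tnf at 0 in each. The levels of Jun and Atf3 (7986 RPM) in A6 were above those of every well with Tnf. In the 2 wells with Tnf and few early response genes, Fos was at 0 and 10.9 RPM and Nfkbia at 0 in both, while Tnf was 344 and 951 RPM and Ccl12 13562 and 16699 RPM. Early response genes and Tnf were therefore each found without the other among the Gpr84 wells. Over all wells these genes move with the sides, and the part of cell handling in any list was not tested.

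Interferon-stimulated genes, which cells transcribe in answer to type I interferon, had a median of 2.09. Of them 16 of 17 were above 0 (all genes 75.9%) and 9 past 4-fold (all genes 9.29%). Within uncrushed retina the median was 4.82, against 1.48 within day 2 and 1.57 within day 4. Rtp4 (3.02), Usp18, a negative regulator of the interferon receptor (2.75), Oasl2 (2.69) and Isg15, a ubiquitin-like modifier (2.50), had the largest differences. Wells with Tnf were uneven: 5 of them had 15 to 17 of the 17 genes at 50 RPM, the uncrushed B2 and C4, D6 of day 2 and H3 and H5 of day 4, while the other 9 had 1 to 11. Wells without Tnf had 1 to 7. Isg15 reached 50 RPM in those 5 wells, at 1024, 250, 542, 500 and 145 RPM, in none of the 9 without Tnf, where 1.90 RPM was the highest, and in 10 of 65 deep wells without Gpr84. It passed the detection filter through these 5 wells alone. Ifnb1, the gene of interferon beta, was at 50 RPM in 1 of 14 and 0 of 9 wells.

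Homeostatic microglia genes, known to be high in resting microglia, had a median of 1.61. Of them 17 of 19 were above 0 (all genes 75.9%) and 6 past 4-fold (all genes 9.29%). Fcrls (3.66), P2ry13, a receptor for ADP (3.58), Olfml3 (3.16) and Slc2a5, a fructose transporter (2.67), differed most. Olfml3 was at 1093 RPM or more in all 14 wells with Tnf and reached 50 RPM in 6 of 9 without. The list's median was 0.47, 1.57 and 2.74 by day, and 0.50 in the wells with at least 5000 genes. Damage-associated microglia genes, known from microglia near plaques and lesions, had a median of 0.65, close to that of all genes, with 3 of 15 past 4-fold. Apoe, a lipid carrier (3.03), was at 50 RPM in 6 of 14 and 0 of 9 wells, Cst7 in 9 and 2 (2.59) and Lpl in 9 and 3 (2.56, but 0.48 in the wells with at least 5000 genes and -2.23 in uncrushed retina). Apoe passed the detection filter through wells with Tnf alone. Spp1, under the filter, was found in 4 of 14 and 0 of 9.

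Chaperones of the endoplasmic reticulum, where secreted and membrane proteins fold, had a median of 2.12 with 7 of 11 past 4-fold (all genes 9.29%). Pdia6 (3.78), Hsp90b1 (2.48), P4hb (2.35) and Calr (2.33) differed most, and the list's median was 1.67, 0.93 and 1.73 by day. Costimulatory and adhesion molecules had a median of 2.17 over 4 genes, 3 past 4-fold, with Cd83 at 3.15, Cd48 at 2.25 and Icam1 at 2.10. That median was 3.95, 0.14 and 3.16 by day and -1.30 on plate 3, and 1 of the 4 genes had the same sign in all days. Icam1, an integrin ligand, differed by -0.15 within day 4. Complement genes had a median of 0.83, where C3ar1 and C5ar1 (3.57) were the 2 of 7 past 4-fold. Within MHC class I the median was 1.27, with H2-T23 (3.48), Tapbp (2.71) and Psmb9 (2.12) past 4-fold of 10.

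**Figure D5:**
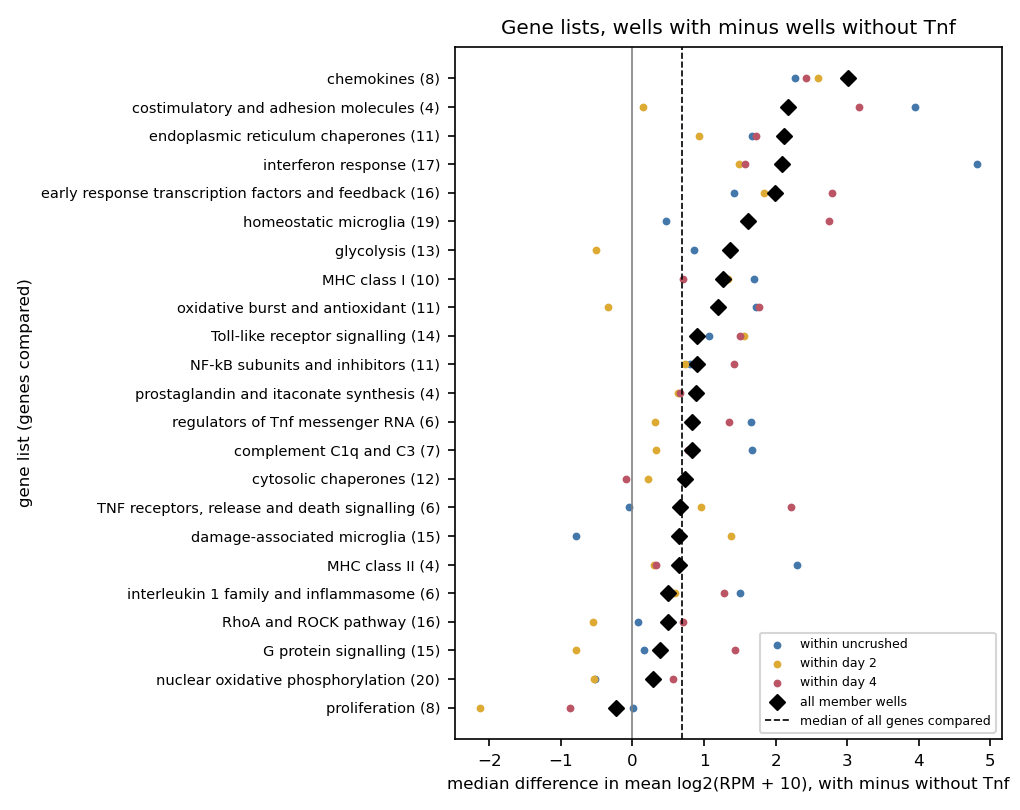
Median difference in mean log2(RPM + 10), wells with minus wells without Tnf, for gene lists with more than 1 gene compared (their number in brackets). Diamonds are all 23 wells, coloured points the differences within a day, and the dashed line the median over all 4199 genes, 0.69. For all wells chemokines stand highest at 3.01 and proliferation lowest at -0.23, and chemokines have all 3 days above 2.

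The receptor's own signalling genes differed little over all wells, but their direction was not the same in all days. The G protein list, which holds subunits and effectors that Gpr84 can signal through, had a median of 0.39. Of its genes 11 of 15 were above 0 (all genes 75.9%) and 0 past 4-fold (all genes 9.29%). That median was 0.17, -0.79 and 1.43 by day and -1.39 on plate 3. Gnai2, the inhibitory alpha subunit, was at 145 RPM or more in all 14 wells with Tnf and at 50 RPM in 7 of 9 without (1.12), and Pik3cg, a phosphatidylinositol kinase downstream of G proteins, had 7 against 1 well (1.73). The pathway of RhoA and its kinase ROCK, which controls the actin cytoskeleton, had a median of 0.49. Of its genes 13 of 16 were above 0, beside the same 75.9% of all genes, and 0 past 4-fold. Rhoa was at 50 RPM in 12 of 14 and 5 of 9 wells (0.98, but -2.25 at day 2). Rock1 was found in 5 and 1 (0.47) and Rock2, under the filter, in 3 and 0. Pfn1, an actin-binding protein, was at 50 RPM in all 23 wells and stood at -0.90, with -0.63, -1.88 and -1.16 by day.

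Lists of metabolism and the cell cycle completed the comparison. Glycolysis had a median of 1.37 with 1 of 13 genes past 4-fold (all genes 9.29%), Tpi1 (2.35). The glycolysis median was 0.86, -0.51 and 1.37 by day. The oxidative burst list stood at 1.19 with 0 of 11 past it, and Nos2 was listed at 0 in all 23 wells. Cytosolic chaperones stood at 0.74 (2 of 12 past 4-fold, Dnajb1 at 2.91 and Dnaja1 at 2.55). The lists of prostaglandin synthesis, MHC class II and nuclear oxidative phosphorylation had medians of 0.89, 0.64 and 0.29 with no gene past 4-fold. Proliferation genes stood at -0.23 with 3 of 8 above 0 (all genes 75.9%). This median ran from -0.56 without the uncrushed well A6 of plate 1 to 0.17 without the day 4 well H2 of plate 1. It was also above 0 when either of 2 day 2 wells was left out (0.02 and 0.12) and without plate 3 (0.51). By day the proliferation median was 0.01, -2.14 and -0.87, beside 0.34, 0.00 and 1.165 for all genes. No list had a gene past 4-fold in the lower direction.

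Set beside the 65 deep wells without Gpr84, both sides of Gpr84 wells stood higher in every gene list. The mean log2(RPM + 10) of the chemokine list was 8.77 ± 1.0 with Tnf, 6.17 ± 1.36 without and 4.68 ± 1.0 in the wells without Gpr84 (SD over wells). For the early response list these values were 8.13 ± 1.97, 6.21 ± 2.57 and 4.82 ± 1.82. For the interferon list they were 6.39 ± 1.92, 4.60 ± 0.45 and 4.16 ± 0.89. In the early response and interferon lists, the mean of wells without Tnf lay within the spread of wells without Gpr84. Over all 4199 genes the median of the genes' mean levels was 5.47, 4.74 and 3.91, in the same order. The list values are means over genes, so the 2 measures are not alike. In the 33 of those wells chosen by their microglia markers, as above, the levels of the 3 lists were 4.76 ± 1.06, 4.71 ± 2.09 and 4.42 ± 1.09. Genes were chosen on the Gpr84 wells, which places the wells without Gpr84 lower by construction.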

How the data were processed

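The authors deposited FPKM (fragments per kilobase and per 1000000 fragments) for 55364 genes in 144 wells. Trim Galore 0.4.4, Trimmomatic 0.36, cutadapt 1.16, STAR 2.7.2b and featureCounts 1.6.1 are named, and the builds GRCm38.p6 and mm10, per the submitters' processing notes. FPKM multiplied by gene length in kilobases gave RPM, which summed to 1000000 in each well. The most frequent RPM above 0 stood for 1 read and set each well's depth, and 36.1% of values under 100 reads were whole within 0.01 in the Gpr84 wells. Without molecular identifiers a molecule can give many reads. Intervals are over numbers of wells and cover counting error only, and wells of a day may share an animal.

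Differences are of mean log2(RPM + 10), over all wells and within each day and plate, without tests. Named are Gpr84, Tnf and Il1a, the 15 highest and 15 lowest differences with the same sign in each day (no unnamed models, ribosomal protein genes or pseudogenes), 4 members of each list with the largest differences, and any member of 6 lists on tumour necrosis factor, NF-kB, interleukin 1, chemokines and RhoA. Genes outside this rule are those given as under the filter or at 0, and 2 whose wells did not overlap. Of the genes this rule takes, 1 is not reported here. The wells, lists and rules were chosen with earlier results of these data known. Aldoa, Ddit3 and Adrbk1 were not matched to 1 gene. The procedure was tested on simulated data. Alternatives were another pseudocount, thinning, filter, scaling, thresholds, days, plates and each well left out. Versions were numpy 2.4.6 and pandas 2.3.3 under Python 3.11.15, with scipy 1.17.1 for intervals and matplotlib 3.10.9 for figures.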

Additional observations from a re-analysis of the deposited data

Results flagged for a closer look

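The highest and lowest wells were looked at among 5 uncrushed Gpr84 wells, 6 of day 2 and 9 of day 4 with Tnf. Reads, genes, Gpr84, Tnf and Il1a gave 15 sets of values. In each set both the highest and the lowest well were held against the cut-off of Dixon's test, without a p-value. These looks share wells, so how many flags would come by chance was not worked out. Among the 6 Gpr84 wells of day 2, well D4 of plate 1 stood apart in depth, with 22.94 in log2 of its recovered reads. In the same group, well E5 of plate 1 stood apart in Gpr84, with a log2(RPM + 10) of 9.70. The wells were chosen on their Gpr84 level, so this flag describes the choice and is no finding. Among the 9 day 4 wells with Tnf, well F6 of plate 2 stood apart on 2 measures. It had the fewest genes, 3738, and the lowest Il1a, a log2(RPM + 10) of 3.56. Without it 1 gene instead of 3 was past 4-fold in the lower direction.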

How the results depend on the processing

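No paired analysis was possible because the replicate numbers only follow the order of the samples and no result comes from a test. Against 390 genes past 4-fold higher with Tnf, 1512 were past it with a pseudocount of 1, 30 with a pseudocount of 50, 237 with Tnf at 200 RPM, 1102 in day 4 wells only and 629 without plate 2. Against 3 lower, the counts in that order were 33, 0, 8, 99 and 20. They were 5 after thinning, 1 with median ratio scaling, 23 with Gpr84 at 200 RPM, 11 in the mean of days, 179 without plate 1, 30 without the wells of conflicting labels and 92 in wells with at least 5000 genes. Leaving out 1 well gave 360 to 495 higher and 1 to 11 lower, the latter without F6 of plate 2 and G1 of plate 1, both of day 4. The median over all genes compared, 0.69, was 1.44 with a pseudocount of 1, 0.030 with no filter on low values, 1.28 in day 4 wells and 0.64 to 0.81 leaving out 1 well. Without plate 1, 3 wells without Tnf remained, and without plate 2, 7 wells with Tnf.

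With a pseudocount of 1, list medians were 4.31 for chemokines, 2.05 for NF-kB, 1.87 for Toll-like receptors and 2.12 for the oxidative burst. In day 4 wells, with the genes chosen anew, they were 2.21 for the receptors of tumour necrosis factor, 1.61 for Toll-like receptors, 1.43 for G proteins, 2.74 for homeostatic and 1.64 for damage-associated genes. With no filter they were 1.13 for chemokines and 0.37 for costimulatory molecules. In wells with at least 5000 genes, again with the genes chosen anew, they were 1.57 for chemokines, 0.50 for homeostatic genes and 0.30 for glycolysis. The median was -0.31 for the receptors of tumour necrosis factor without the wells of conflicting labels, and 1.71 for the interleukin 1 family without plate 2. The chemokine median was 2.76 to 3.19 leaving out 1 well, the early response median 1.68 to 2.52 and the interferon median 1.59 to 2.30. Icam1 differed by -0.15 in day 4 wells against 2.10. The causes were not tested. Of other values, 436 for the results above and 2428 for single genes counted as unchanged, and 36 for single genes moved. Unchanged meant a shift under the spread between wells or, for counts of genes and wells, within a set factor. Leaving out 1 well is not in this tally. There, 16 values for the results above moved and 600 did not, and all 3331 for single genes were unchanged. The sides hold 14 and 9 wells, each day fewer, and wells of a day may share an animal.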
